A study of Homo sapiens with 4 samples.

Results

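The enzymes that add and remove methyl and acetyl groups on histones, and methyl groups on DNA, were followed in TPC1 cells between 6 h and 24 h of treatment with BLU6864. TPC1 is a human papillary thyroid carcinoma line that carries a CCDC6-RET fusion, and BLU6864 is an inhibitor of the RET kinase. Members were the protein-coding genes whose symbols begin with KDM, KMT, HDAC, SIRT, SETD, KAT or DNMT and a digit, those beginning with SUV, TET1 to TET3, and 11 further genes that were named singly, EZH1, EZH2, EED, SUZ12, HELLS, EP300, CREBBP, DOT1L, NSD1, EHMT1 and EHMT2. This rule took 81 of the 20372 genes in the table. UHRF1, which the rule also names, was not analysed here.

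Total RNA was sequenced in 2 libraries at 24 h (BLU24H) and 2 at 6 h (BLU6H), and the question was which genes changed as exposure to the inhibitor lengthened. All 4 libraries came from cells grown in the same serum-supplemented medium and given BLU6864. The labels give its dose as 100 µM, whereas the methods of the study give the dose in nM, and the labels describe single-end reads where the methods describe paired-end reads. The 24 h libraries are marked as a re-analysis in their titles. What that mark stands for is not stated in the labels, and any difference behind it cannot be separated from time. No vehicle libraries were analysed here, so the duration of treatment and the longer time in culture cannot be told apart. Nothing in the sources says that the libraries of a time came from separate cultures, so the P values measure the spread between these libraries, which may be technical. Summed over genes, the 24 h libraries held 26486456 and 27457040 counts, the 6 h ones 23917056 and 26829072. Across the genes tested, the lowest Spearman correlation within a time was 0.998 and the highest between times was 0.941.

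The libraries carried part of the thyroid follicular programme. PAX8, a thyroid transcription factor, had between 19124 and 22978 counts in every library, and FOXE1, HHEX and TG were detected, while NKX2-1 and TSHR had 0 counts in all 4. Of 6 epithelial markers, 4 had more than 3 counts in every library, led by KRT8. Among 6 leukocyte markers only CD14 passed 3 counts in every library, and the list summed to 92 and 93 counts at 24 h and 50 and 48 at 6 h. The 4 fibroblast markers summed to 175 and 233 counts at 24 h and 521 and 610 at 6 h. PDGFRB was the most abundant, with 111 and 138 counts at 24 h and 303 and 373 at 6 h. COL1A1 had 63 and 95 counts at 24 h and 218 and 237 at 6 h. COL1A2 was at 0 and DCN at 1 count or fewer in each library. The 2 endothelial markers analysed here summed to 4 and 5 counts at 24 h and 17 and 11 at 6 h. Whether these marker levels have a part in the changes below was not tested.

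As background, writers add chemical groups to histone tails or to cytosines, and erasers take them off. Acetylation of histone lysines and methylation of lysine 4 of histone H3 (H3K4) mark active genes, methylation of H3K9 and H3K27 marks silent chromatin, and methylation of cytosines keeps many silent regions stable through cell division. Because marks are diluted each time DNA is copied, several writers are produced together with the replication machinery in dividing cells. Other members act outside chromatin, and some that share a family name have no catalytic activity of their own. Counts below are normalized by the trimmed mean of M values (TMM) unless called raw, and fold changes are 24 h relative to 6 h with their standard errors (SE). A gene rose or fell if its Benjamini-Hochberg adjusted P, from the quasi-likelihood test of edgeR over 12876 genes, was under 0.05. A second, stricter rule took the cutoffs of the study's methods, a P under 0.01 with a log2 fold change below -0.5. The P was read here as unadjusted, and the rule was extended to log2 fold changes above 0.5.

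SUV39H1, EZH2 and HELLS showed the largest falls among the enzymes, each more than 3-fold, and HDAC7 showed the largest rise. Of the 81 members, 79 were tested. KDM4E had no counts, and KDM5D was not tested. Between 6 h and 24 h, 19 members rose, or 24.1% of those tested, against 33.0% of all genes tested. A further 26 members fell, or 32.9%, against 32.6% of all genes. Past both cutoffs were 5 members in the upward direction (6.33%, against 17.4% of all genes) and 11 in the downward direction (13.9%, against 17.7% of all genes). The 24 h and 6 h libraries did not overlap for 58 members, or 73.4%, against 81.8% of all genes tested. The median log2 fold change of the members was -0.05, beside 0.0029 for all genes, and their median absolute log2 fold change was 0.24, beside 0.37. The members thus changed no more often than genes in general in this comparison. Their counts made up 0.355% and 0.362% of each 24 h library and 0.385% and 0.388% of each 6 h library.

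**Figure D1:**
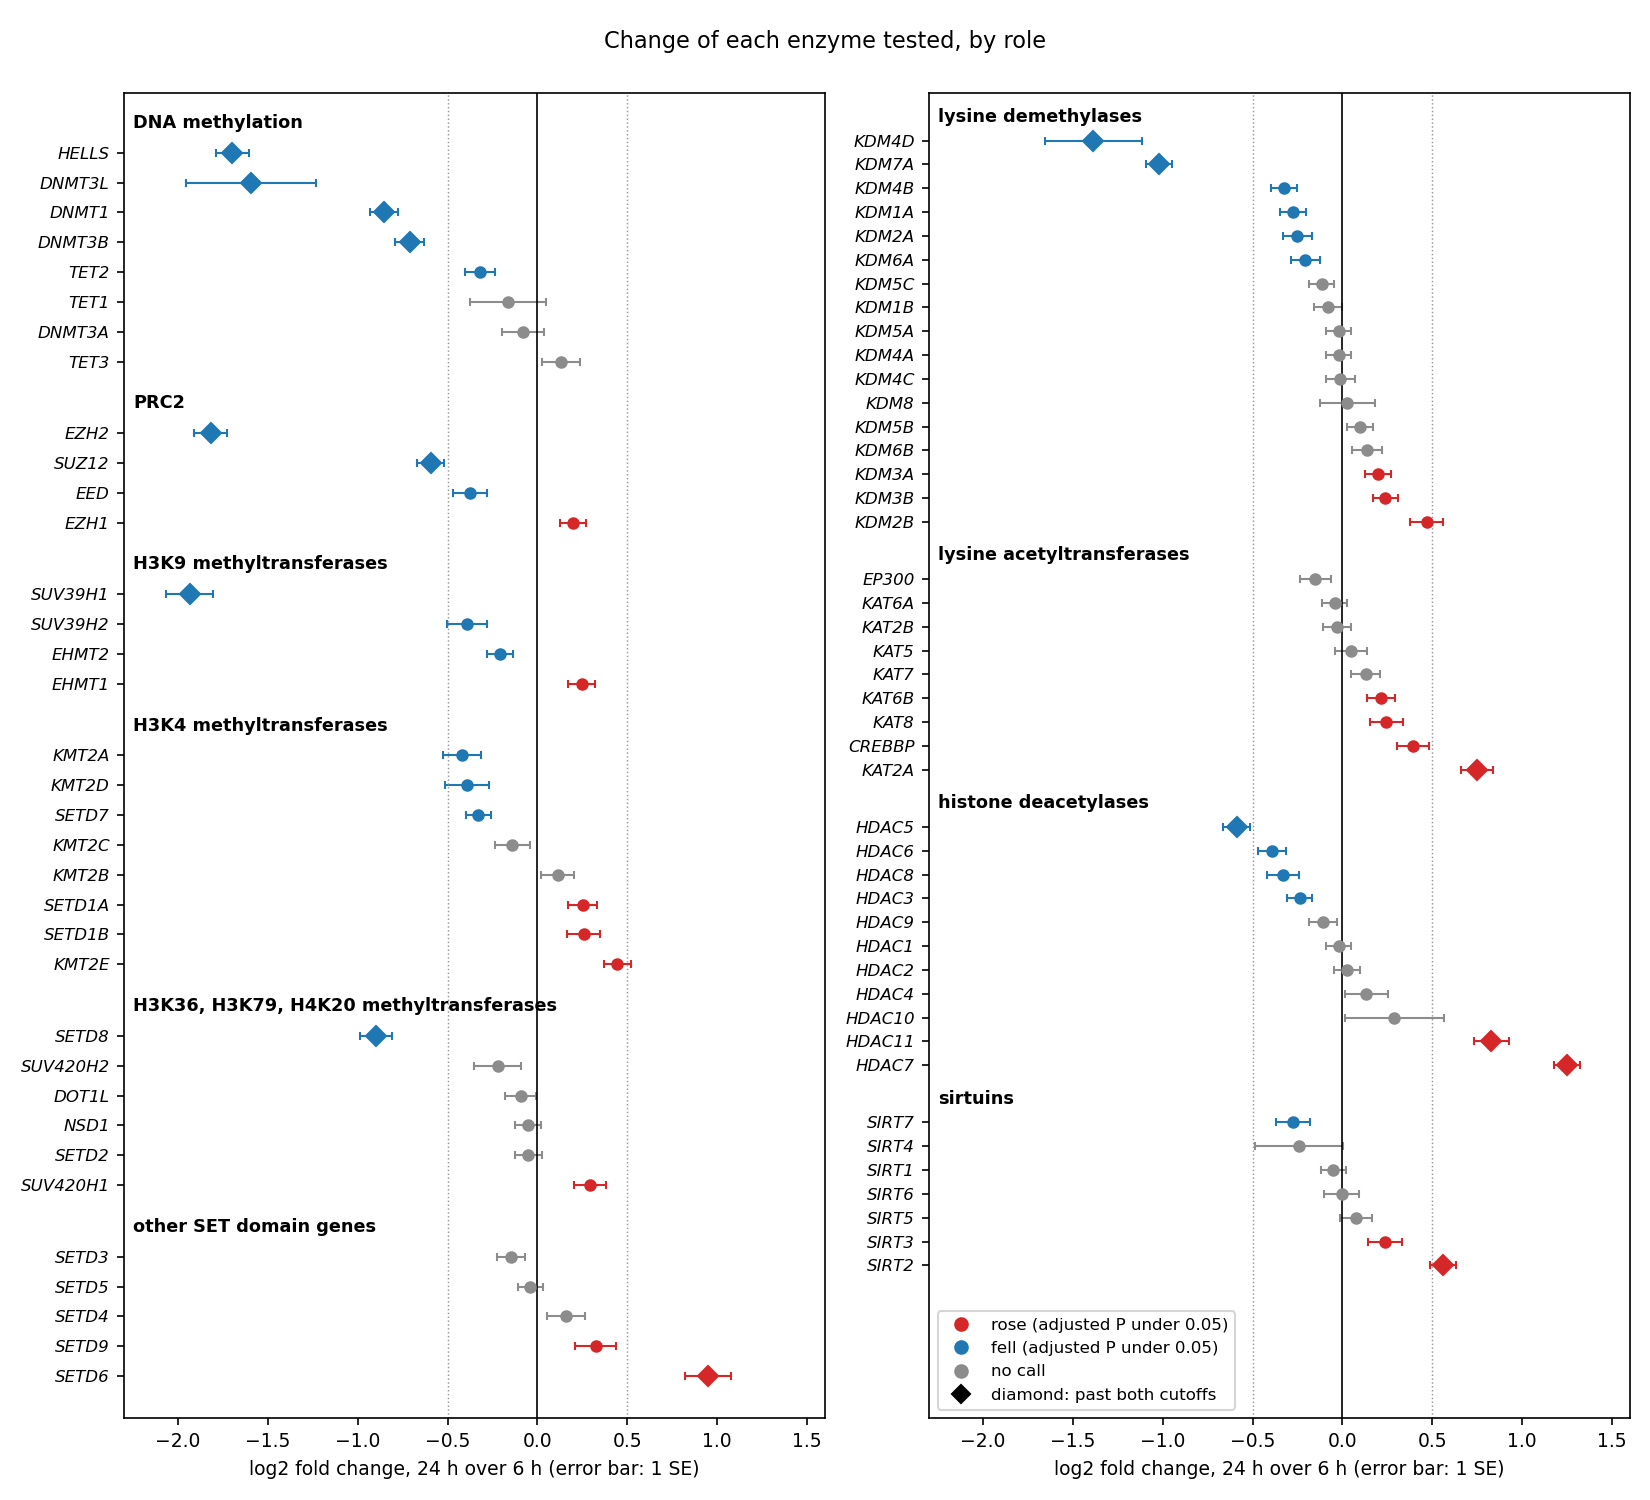
Log2 fold change at 24 h relative to 6 h of each of the 79 enzymes tested, grouped by role, with error bars of 1 SE. Red points rose and blue points fell, grey points had no call, diamonds passed both cutoffs, and dotted lines mark log2 fold changes of -0.5 and 0.5. Among DNA methylation genes all 4 diamonds lie to the left, and HDAC7 lies farthest to the right of all enzymes.

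Not every call was equally firm. Of the 45 members called, 27 kept their call in each of the 10 other fits that tested them, 18 that fell and 9 that rose. The other 18 lost it in at least 1 fit, and they are given below with the libraries concerned. Calls were also gained by members without one, SETD3 in 4 of these fits, EP300 in 3, and KDM6B, KMT2B, KMT2C, SETD4 and TET3 in 1 each. All 16 members past both cutoffs kept an adjusted P under 0.05 in every one of these fits that tested them. RNA was taken from whole cultures, so fewer cells that express a gene and less of its RNA per cell cannot be told apart.

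**Figure D2:**
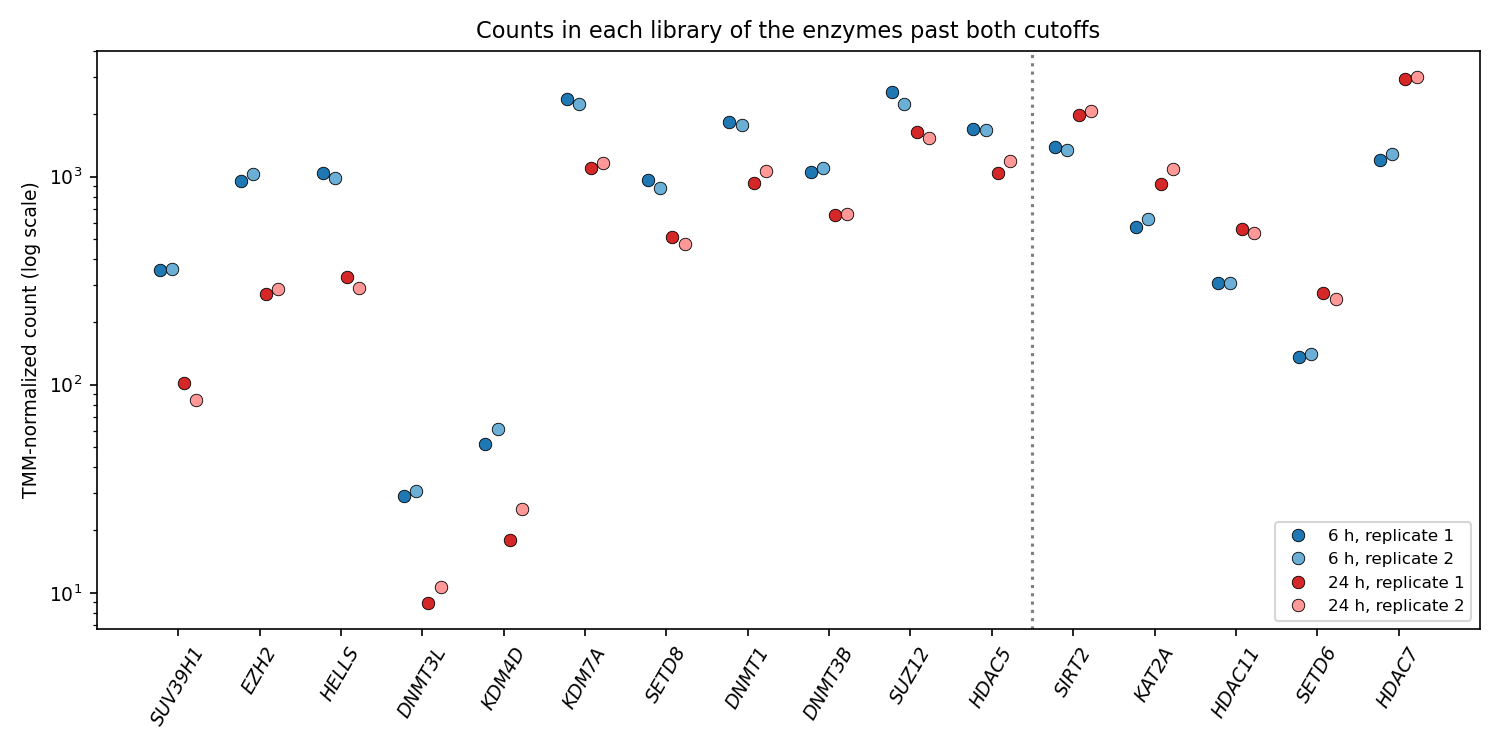
TMM-normalized count in each of the 4 libraries of the 16 enzymes past both cutoffs, on a log scale, ordered by fold change, with blue for 6 h and red for 24 h. The 11 genes left of the dotted line are lower in both 24 h libraries than in both 6 h libraries, and the 5 on the right are higher.

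Genes of DNA methylation fell in 5 of 8 cases (62.5%, against 32.6% of all genes tested), 4 of them past both cutoffs (50%, against 17.7%), and none rose. Their median log2 fold change was -0.52. HELLS encodes a chromatin remodelling ATPase that DNA methylation of repeats depends on (chr10:96305547-96373662 in hg19, the build of the table). It had counts of 1035 and 982 at 6 h and 329 and 293 at 24 h. Both 24 h libraries lay far below both 6 h libraries, a 3.24-fold difference (log2 fold change -1.70 ± 0.09 SE, adjusted P = 6.46e-15). DNMT1, the maintenance methyltransferase that copies methylation onto newly made DNA (chr19:10244021-10341962), had counts of 1831 and 1772 at 6 h and 930 and 1063 at 24 h. It fell 1.81-fold (log2 fold change -0.85 ± 0.08, adjusted P = 1.87e-10), again without overlap between the times. The span of DNMT1 shares 7429 bases with S1PR2 in the table, which had mean counts of 33.9 at 24 h and 28.1 at 6 h, small beside those of DNMT1.

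Of the enzymes that set new DNA methylation, DNMT3B (chr20:31350191-31397162) had counts of 1048 and 1096 at 6 h and 653 and 658 at 24 h. Replicates of a time lay close together and the times were well apart (log2 fold change -0.71 ± 0.08, adjusted P = 1.61e-08). DNMT3A, its paralog, had counts of 243 and 242 at 6 h and 233 and 225 at 24 h, and its log2 fold change of -0.08 ± 0.12 was not called (adjusted P = 0.553). Per kilobase (kb) of its longest coding transcript, DNMT3B was at 247 normalized counts at 6 h and 151 at 24 h, and DNMT3A at 25.5 and 24.1, so DNMT3B remained the more abundant transcript at both times. The ratio of DNMT3B to DNMT3A per kb was 9.46 and 9.93 at 6 h and 6.13 and 6.41 at 24 h. DNMT3L, a cofactor without catalytic activity that stimulates both (chr21:45666222-45682099), was scarce, with 29.1 and 30.7 counts at 6 h and 8.97 and 10.7 at 24 h. Its fold change carried a wide error for that reason (log2 fold change -1.59 ± 0.36, adjusted P = 0.000403). With fewer than 10 counts in 1 library it was not tested under the stricter filter on low counts.

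The TET dioxygenases, which oxidize methylated cytosine and so begin its removal, moved less. TET2 had counts of 1098 and 1139 at 6 h and 965 and 826 at 24 h, lower at 24 h in both libraries (log2 fold change -0.32 ± 0.08, adjusted P = 0.00137). This call was lost without replicate 2 of 24 h, where the log2 fold change was -0.21, and its adjusted P ranged from 1.19e-05 to 0.0607 over the 10 other fits. TET1 and TET3 were not called.

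Polycomb repressive complex 2 (PRC2) writes methylation of H3K27 through either of 2 catalytic subunits, EZH1 or EZH2, with EED and SUZ12 as required partners. EZH2 (chr7:148504475-148581413) had counts of 956 and 1025 at 6 h and 274 and 288 at 24 h. It fell 3.53-fold (log2 fold change -1.82 ± 0.09, adjusted P = 1.56e-15), with the times wide apart and replicates close. EZH1 went the other way, with counts of 1235 and 1193 at 6 h and 1367 and 1420 at 24 h, a small rise (log2 fold change 0.20 ± 0.07, adjusted P = 0.0176). The EZH1 call did not hold with DESeq2 (log2 fold change 0.20), with library size alone (0.16), without replicate 2 of 24 h (0.18) or without replicate 2 of 6 h (0.17), and its adjusted P ranged from 0.00424 to 0.11 over the other fits.

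At the level of RNA, the balance of the 2 catalytic subunits shifted, mainly through the fall of EZH2. Per kb, EZH2 stood at 373 normalized counts and EZH1 at 262 at 6 h, and EZH2 at 106 and EZH1 at 301 at 24 h. The ratio of EZH2 to EZH1 was 1.352 and 1.4999 at 6 h and 0.350 and 0.354 at 24 h, so EZH2 was the more abundant per kb at 6 h and the less abundant at 24 h. The order at 6 h turns on the transcript lengths used, since by count EZH1 was above EZH2 at both times. SUZ12 (chr17:30264037-30328064) had counts of 2546 and 2235 at 6 h and 1641 and 1528 at 24 h, below in both 24 h libraries (log2 fold change -0.59 ± 0.08, adjusted P = 1.36e-07). Without replicate 1 of 6 h its log2 fold change was -0.50 and just short of the fold cutoff, though it was still called. EED, which binds the methylated tail and stimulates the enzyme, fell less, by 0.38 ± 0.09 on the log2 scale (adjusted P = 0.00101). Of the 4 PRC2 members, 3 fell (75%, against 32.6% of all genes tested) and 1 rose (25%, against 33.0%), and their median log2 fold change was -0.48.

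Promoter sequences were compared because several of these genes fell together. Letters of the kind bound by E2F factors, which control genes of DNA replication (TTTGGCGC, TTTCCCGC, TTTGCCGC or TTTCGCGC), were searched on both strands of the RefSeq windows in build GRCh38.p14, each from 250 bases before a gene's start to 50 after it. The letters of the cell cycle homology region (TTTGAA) were searched likewise, and no E2F-like motif contains it. At least 1 window was found for 73 of the 81 members. Of the 11 members lower past both cutoffs, 9 had a window, and 4 of these held an E2F-like motif, DNMT1, EZH2, HELLS and SUZ12. HDAC5 and DNMT3L had none to search. Among all 73 members 7 held one (9.59%), among tested genes with a window 6.69%, and among all 35116 windows searched 3.31%. None of the 5 members higher past both cutoffs did. The other members with an E2F-like motif were EZH1, KDM1B and SIRT6, of which none fell. TTTGAA was found in KDM4D and SUZ12 among the 9, and in 13.8% of tested genes. A match is a description of the letters alone. The 4 windows are shown 5′ to 3′ on the strand of the gene, with the motifs in capitals, since they belong to 4 of the genes that fell. In DNMT1 (chr19:10194904-10195203, minus strand) the motif, read on the opposite strand, begins 2 bases before the start and runs across it. In EZH2 (chr7:148884242-148884541, minus strand, the upstream of 2 windows) it fills bases 252 to 259. HELLS (chr10:94545538-94545837, plus strand) holds 2, at bases 175 to 182 on the opposite strand and at 243 to 250. In SUZ12 (chr17:31936757-31937056, plus strand) the E2F-like motif fills bases 62 to 69, and TTTGAA lies at bases 78 to 83 on the opposite strand.
DNMT1 promoter: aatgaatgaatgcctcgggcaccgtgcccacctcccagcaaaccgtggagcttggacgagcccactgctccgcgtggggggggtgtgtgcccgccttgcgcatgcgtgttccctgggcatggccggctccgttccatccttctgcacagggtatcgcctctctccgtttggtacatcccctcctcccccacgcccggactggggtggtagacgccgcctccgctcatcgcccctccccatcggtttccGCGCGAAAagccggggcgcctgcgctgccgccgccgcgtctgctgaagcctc
EZH2 promoter: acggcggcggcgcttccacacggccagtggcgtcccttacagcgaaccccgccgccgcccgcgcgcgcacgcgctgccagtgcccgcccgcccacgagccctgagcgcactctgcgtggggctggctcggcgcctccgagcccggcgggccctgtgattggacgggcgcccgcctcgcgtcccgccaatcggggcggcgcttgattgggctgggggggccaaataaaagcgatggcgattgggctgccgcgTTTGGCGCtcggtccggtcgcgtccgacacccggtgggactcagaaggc
HELLS promoter: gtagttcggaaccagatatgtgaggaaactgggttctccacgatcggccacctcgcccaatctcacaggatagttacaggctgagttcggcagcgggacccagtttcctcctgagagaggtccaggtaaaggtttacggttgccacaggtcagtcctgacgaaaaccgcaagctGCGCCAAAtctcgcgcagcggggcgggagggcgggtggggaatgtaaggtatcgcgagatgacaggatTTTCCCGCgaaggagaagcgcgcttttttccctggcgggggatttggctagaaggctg
SUZ12 promoter: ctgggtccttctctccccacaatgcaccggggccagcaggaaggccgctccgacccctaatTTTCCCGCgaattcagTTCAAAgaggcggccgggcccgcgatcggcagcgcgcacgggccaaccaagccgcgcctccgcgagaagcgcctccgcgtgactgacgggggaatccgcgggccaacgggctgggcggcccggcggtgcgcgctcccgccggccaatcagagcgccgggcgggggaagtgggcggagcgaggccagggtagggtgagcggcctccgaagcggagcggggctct

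The 4 writers of H3K9 methylation among the members were called, and 3 of them fell (75%, against 32.6% of all genes tested). Of 2 further writers of the mark outside the member rule, SETDB1 rose by 0.38 ± 0.07 on the log2 scale (adjusted P = 6.92e-05) and SETDB2 was not called. SUV39H1, which writes the trimethyl mark of heterochromatin (chrX:48553945-48567403), had the largest fall of any member tested. Its counts were 354 and 359 at 6 h and 102 and 84.7 at 24 h, a 3.83-fold difference with no overlap (log2 fold change -1.94 ± 0.13, adjusted P = 8.90e-13). SUV39H2, its paralog, had counts of 324 and 302 at 6 h and 227 and 249.1 at 24 h and fell by 0.39 ± 0.11 on the log2 scale (adjusted P = 0.0036). SUV39H2 shares 6957 bases with DCLRE1C, whose log2 fold change was -0.57, and since the sources describe a stranded library kit but give neither the counter nor its strand setting, reads of overlapping genes may be divided between them or lost. Per kb, SUV39H1 exceeded SUV39H2 in both 6 h libraries (ratios of 1.13 and 1.23) and lay under it in both 24 h libraries (0.464 and 0.352).

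EHMT1 and EHMT2 form the dimer that writes mono- and dimethylation of H3K9, and they moved in opposite directions by small amounts. EHMT2 had counts of 2501 and 2595 at 6 h and 2104 and 2303 at 24 h (log2 fold change -0.21 ± 0.07, adjusted P = 0.0127). EHMT1 had counts of 1143 and 1168 at 6 h and 1311 and 1431 at 24 h (log2 fold change 0.25 ± 0.07, adjusted P = 0.00504). Neither pair of times overlapped. The ratio of EHMT2 to EHMT1 per kb was 2.6998 and 2.7427 at 6 h and 1.98 and 1.99 at 24 h, so EHMT2 was the more abundant in every library. The EHMT2 call was lost without replicate 1 of 24 h (log2 fold change -0.14) and without replicate 2 of 6 h (-0.19), and its adjusted P ranged from 0.00132 to 0.184 over the other fits. EHMT1 lost its call without replicate 2 of 24 h (log2 fold change 0.19), with a range of adjusted P from 0.000405 to 0.0679.

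**Figure D3:**
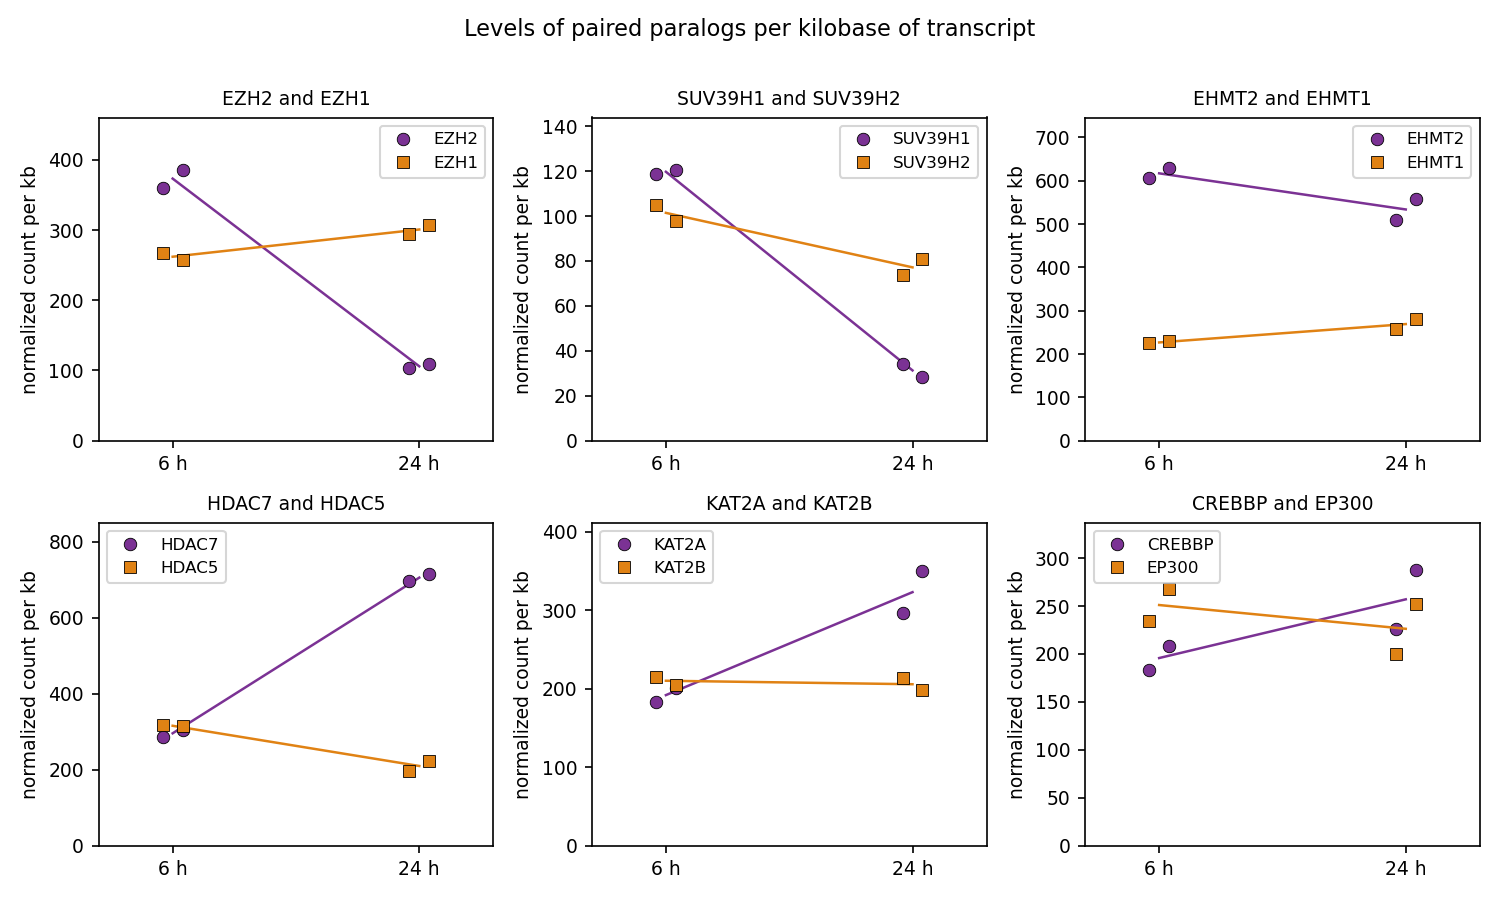
TMM-normalized counts per kb of the longest coding transcript for 6 pairs of paralogs at 6 h and 24 h. Points are single libraries, 2 per time, and lines join the means. EZH2 and SUV39H1 cross below their paralogs EZH1 and SUV39H2, HDAC7 crosses above HDAC5, and EHMT2 stays above EHMT1.

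Of 8 writers of H3K4 methylation, 3 rose and 3 fell (37.5% each way, near the 33.0% and 32.6% of all genes tested). None passed both cutoffs, against 17.4% of all genes upward and 17.7% downward, and the median log2 fold change was -0.01. KMT2E, a relative of the KMT2 enzymes that is not known as an active methyltransferase, showed the largest change. It had counts of 953 and 1005 at 6 h and 1300 and 1366 at 24 h, higher at 24 h in both libraries (log2 fold change 0.44 ± 0.08, adjusted P = 1.1e-05). SETD7, a monomethyltransferase that also acts on non-histone proteins, was the most abundant of the group, with counts of 2529 and 2404 at 6 h and 1998 and 1931 at 24 h (log2 fold change -0.33 ± 0.07, adjusted P = 0.000205). Both genes kept their calls in all 10 other fits.

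The large KMT2 enzymes varied between replicates. KMT2A, a promoter-bound writer, had counts of 1187 and 1571 at 6 h and 899 and 1165 at 24 h (log2 fold change -0.42 ± 0.11, adjusted P = 0.00108). KMT2D, a writer at enhancers, had counts of 978 and 1456 at 6 h and 801 and 1062 at 24 h (log2 fold change -0.39 ± 0.12, adjusted P = 0.00737). In both genes replicate 2 was above replicate 1 at each time, and for KMT2D replicate 2 of 24 h exceeded replicate 1 of 6 h. Neither call held with DESeq2, where the log2 fold changes were -0.42 and -0.39, nor without replicate 2 of 6 h, where they were -0.21 for KMT2A and -0.07 for KMT2D. KMT2D also lost its call without replicate 1 of 24 h (log2 fold change -0.20). Both passed the cutoffs without replicate 2 of 24 h (-0.61 for KMT2A and -0.60 for KMT2D) and without replicate 1 of 6 h (-0.61 and -0.65). The adjusted P ranged from 2.15e-09 to 0.176 for KMT2A and from 1.75e-07 to 0.618 for KMT2D over the other fits. SETD1A and SETD1B, which carry H3K4 trimethylation at promoters, had log2 fold changes of 0.25 and 0.26. Without replicate 2 of 24 h neither was called (0.20 and 0.10), and SETD1B was also lost without replicate 1 of 6 h (0.17) and with DESeq2 (0.25). Their adjusted P ranged from 0.000774 to 0.07475 and from 0.000205 to 0.383. KMT2B and KMT2C had no call.

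Among 6 writers of H3K36, H3K79 and H4K20 methylation, 1 fell and 1 rose (16.7% each way, against 32.6% and 33.0% of all genes tested). SETD8, now named KMT5A, places the monomethyl mark on H4K20 and is needed for orderly S phase and mitosis (chr12:123868320-123893905). Its counts were 959 and 876 at 6 h and 510 and 474 at 24 h, a 1.86-fold fall without overlap (log2 fold change -0.90 ± 0.09, adjusted P = 1.12e-09). SUV420H1, which adds further methyl groups to the mark that SETD8 makes, had counts of 885 and 722 at 6 h and 1005 and 960 at 24 h (log2 fold change 0.29 ± 0.09, adjusted P = 0.00543). That call was lost without replicate 2 of 6 h (log2 fold change 0.15), with an adjusted P between 0.000122 and 0.213 over the other fits. NSD1, a writer of H3K36 dimethylation and the most abundant of the group, had counts of 1926 and 2032 at 6 h and 1902 and 1917 at 24 h and no call (log2 fold change -0.05 ± 0.07). The other uncalled writers here, SETD2, DOT1L and SUV420H2, had log2 fold changes between -0.22 and -0.05.

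SET domain genes outside these groups act partly on other substrates. SETD6 methylates the RELA subunit of NF-kappaB among other proteins (chr16:58549383-58554431) and had counts of 136 and 140 at 6 h and 277 and 257 at 24 h. It rose 1.93-fold with tight replicates (log2 fold change 0.95 ± 0.13, adjusted P = 3.3e-07). SETD6 shares 577 bases with CNOT1, a far more abundant gene with mean counts of 6492 at 6 h and 7023 at 24 h and a log2 fold change of 0.11. SETD9 had a log2 fold change of 0.32 ± 0.12 (adjusted P = 0.0161). It was lost with DESeq2 (0.32), without replicate 2 of 24 h (0.26) and without replicate 1 of 6 h (0.19), with an adjusted P from 0.00354 to 0.225, and it shares 5931 bases with MIER3, whose log2 fold change was 0.28. SETD5, the most abundant of the group, had counts of 2219 and 2289 at 6 h and 2215 and 2173 at 24 h and was not called, nor were SETD3 and SETD4. SETD3 did fall in 4 other fits, with library size alone, with the replicate block, without replicate 1 of 24 h and without replicate 2 of 6 h, and SETD4 rose without replicate 2 of 6 h.

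Among lysine demethylases 3 of the 17 tested rose (17.6%, against 33.0% of all genes), 6 fell (35.3%, against 32.6%) and 8 had no call, with a median log2 fold change of -0.02. KDM7A, a JmjC enzyme that removes methyl groups from H3K9 and H3K27 (chr7:139784546-139876835), had counts of 2370 and 2221 at 6 h and 1100 and 1159 at 24 h. It fell 2.03-fold, and no library of one time approached the other (log2 fold change -1.02 ± 0.07, adjusted P = 1.84e-12). KDM4D (chr11:94706845-94732682) was scarce, with counts of 51.8 and 61.4 at 6 h and 17.9 and 25.3 at 24 h (log2 fold change -1.39 ± 0.27, adjusted P = 6.54e-05). KDM4D has a close copy in KDM4E, so its reads are uncertain in origin, although KDM4E had 0 counts in all 4 libraries. These were the only demethylases past both cutoffs (11.8% of those tested, against 17.7% of all genes in the downward direction).

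KDM4B fell by 0.32 ± 0.07 on the log2 scale (adjusted P = 0.000241), and KDM1A, the amine oxidase that removes H3K4 methylation within corepressor complexes, fell by 0.28 ± 0.07 (adjusted P = 0.00155). KDM2A had a log2 fold change of -0.25, and its call was lost without replicate 1 of 24 h (-0.11, with an adjusted P between 8.78e-05 and 0.286 over the other fits). KDM6A, an eraser of H3K27 methylation, had a log2 fold change of -0.21. It was not called with DESeq2 (-0.21), with upper quartile scaling (-0.18), or without replicate 1 of 24 h (-0.19), replicate 2 of 24 h (-0.21) or replicate 1 of 6 h (-0.11), and its adjusted P ranged from 0.00536 to 0.318. In the upward direction, KDM2B, which brings a variant polycomb complex to CpG islands, had counts of 475 and 470 at 6 h and 624 and 684 at 24 h. It rose without overlap and stayed just short of the fold cutoff (log2 fold change 0.47 ± 0.09, adjusted P = 5.89e-05), which it passed without replicate 1 of 24 h (0.54). KDM3B rose by 0.24 ± 0.07 on the log2 scale (adjusted P = 0.00381). KDM3A, at 0.20, lost its call with DESeq2 (0.19), with library size alone (0.15), without replicate 1 of 24 h (0.14) and without replicate 2 of 6 h (0.17), with an adjusted P from 0.00425 to 0.165.

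KDM5B, an eraser of H3K4 methylation, was the most abundant demethylase by count, with 5065 and 4622 at 6 h and 5155 and 5202 at 24 h, and was not called (log2 fold change 0.10 ± 0.07, adjusted P = 0.244). None of the 3 members of its family tested was called. The 8 demethylases without a call had log2 fold changes between -0.12 and 0.14.

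Lysine acetyltransferases rose in 4 of 9 cases (44.4%, against 33.0% of all genes tested), 2 of which were lost in other fits. None fell, against 32.6% of all genes, and their median log2 fold change was 0.13. KAT2A, the catalytic subunit of SAGA and ATAC complexes (chr17:40265126-40273376), had counts of 571 and 624 at 6 h and 923 and 1089 at 24 h. It rose 1.68-fold, and the times did not overlap (log2 fold change 0.75 ± 0.09, adjusted P = 4.79e-08). Its paralog KAT2B had counts of 948 and 905 at 6 h and 940 and 874 at 24 h and no call (log2 fold change -0.03 ± 0.08). The ratio of KAT2A to KAT2B per kb went from 0.853 and 0.976 at 6 h to 1.39 and 1.76 at 24 h, so per kb KAT2A was the lower of the pair at 6 h and the higher at 24 h, though by count it was still below KAT2B in replicate 1 of 24 h.

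CREBBP and EP300 are coactivators with broad acetyltransferase activity at enhancers. CREBBP had counts of 1973 and 2252 at 6 h and 2440 and 3107 at 24 h, a rise without overlap (log2 fold change 0.39 ± 0.09, adjusted P = 0.000388). Its size depended on the 24 h libraries, with a log2 fold change of 0.21 without replicate 2 (adjusted P = 0.0457) and 0.56, past the cutoffs, without replicate 1. EP300 had counts of 2055 and 2353 at 6 h and 1757 and 2216 at 24 h, which overlapped between the times, and was not called (log2 fold change -0.15 ± 0.09, adjusted P = 0.133). It was called as lower with the replicate block (log2 fold change -0.15), without replicate 2 of 24 h (-0.32) and without replicate 1 of 6 h (-0.25), with an adjusted P from 0.00414 to 0.907 over the other fits. Although each gene was higher in replicate 2 than in replicate 1 at both times, their ratio hardly differed between replicates. Per kb, CREBBP to EP300 was 0.781 and 0.778 at 6 h and 1.13 and 1.14 at 24 h. KAT6B and KAT8, catalytic subunits of MYST complexes, had log2 fold changes of 0.22 and 0.25. The KAT6B call was lost with DESeq2 (0.21), with library size alone (0.17), and without replicate 2 of 24 h (0.15), replicate 1 of 6 h (0.23) or replicate 2 of 6 h (0.20). KAT8 lost its call with DESeq2 (0.24), with library size alone (0.20), without replicate 1 of 24 h (0.21) and without replicate 2 of 6 h (0.14). Their adjusted P ranged from 0.00402 to 0.179 and from 0.00529 to 0.276. The 5 acetyltransferases without a call had log2 fold changes between -0.15 and 0.13.

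Histone deacetylases, the zinc-dependent erasers of acetylation, included the largest rise of any member. Of 11 genes, 2 rose (18.2%, against 33.0% of all genes tested) and 4 fell (36.4%, against 32.6%). HDAC7, a class IIa enzyme with weak intrinsic activity that represses MEF2 targets (chr12:48176505-48226915), had counts of 1206 and 1286 at 6 h and 2936 and 3006 at 24 h. It rose 2.38-fold, with replicates close together (log2 fold change 1.25 ± 0.07, adjusted P = 2.05e-14). HDAC7 shares 32 bases with SLC48A1, which itself went from a mean of 293 to 2744 counts, and 1082 bases with a gene that had a mean of 1.96 counts at most. HDAC5, of the same class (chr17:42154114-42201070), fell from 1687 and 1673 counts at 6 h to 1043 and 1190 at 24 h (log2 fold change -0.59 ± 0.08, adjusted P = 1.43e-07). Without replicate 1 of 24 h its log2 fold change was -0.49 and short of the fold cutoff. The ratio of HDAC7 to HDAC5 per kb was 0.903 and 0.971 at 6 h and 3.56 and 3.19 at 24 h. HDAC4 and HDAC9, the rest of class IIa, were not called.

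HDAC11, the single class IV enzyme (chr3:13521224-13547916), had counts of 309 and 308 at 6 h and 562 and 534 at 24 h. It rose 1.78-fold without overlap (log2 fold change 0.83 ± 0.10, adjusted P = 2.93e-08). Of the class I enzymes, HDAC1 and HDAC2, which serve large nuclear corepressor complexes, moved little. HDAC1 was the most abundant deacetylase, with counts of 4488 and 4519 at 6 h and 4448 and 4429 at 24 h, and HDAC2 had 3784 and 3440 at 6 h and 3712 and 3634 at 24 h. Neither was called, and their log2 fold changes of -0.02 ± 0.07 and 0.02 ± 0.07 changed sign with the scaling, HDAC1 with upper quartile scaling and HDAC2 with library size alone. HDAC3, a further class I enzyme, fell by 0.24 ± 0.07 on the log2 scale (adjusted P = 0.00405), and HDAC6, a largely cytoplasmic tubulin deacetylase, fell by 0.39 ± 0.08 (adjusted P = 0.000116). HDAC8 had a log2 fold change of -0.33 ± 0.09 (adjusted P = 0.00225), lost without replicate 2 of 24 h (-0.23, with an adjusted P from 8.32e-05 to 0.0602 over the other fits). HDAC10 had 30.9 and 44.8 counts at 24 h and 28.1 and 33.6 at 6 h, too few to resolve a difference of its size (log2 fold change 0.29 ± 0.28), and nearly its whole span overlaps MAPK12.

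Sirtuins are NAD-dependent deacylases found in the nucleus, the cytoplasm and mitochondria, and 2 of 7 rose (28.6%, against 33.0% of all genes tested) and 1 fell (14.3%, against 32.6%). SIRT2, which is mainly cytoplasmic (chr19:39369197-39390502), was the most abundant by count at 24 h, while SIRT1 was above it at 6 h. SIRT2 had counts of 1390 and 1345 at 6 h and 1968 and 2066 at 24 h, a rise of 1.47-fold without overlap (log2 fold change 0.56 ± 0.07, adjusted P = 1.16e-07). The 163 bases it shares with NFKBIB involve a gene that went the other way (log2 fold change -0.47). SIRT3, a mitochondrial enzyme, had a log2 fold change of 0.24 and lost its call with DESeq2 (0.23), with library size alone (0.20), and without replicate 1 of 24 h (0.20), replicate 1 of 6 h (0.22) or replicate 2 of 6 h (0.25). SIRT7, a nucleolar enzyme, had a log2 fold change of -0.27 and lost its call with DESeq2 (-0.28), without replicate 1 of 24 h (-0.24) and without replicate 2 of 6 h (-0.19). Their adjusted P ranged from 0.0175 to 0.151 and from 0.00261 to 0.167 over the other fits. SIRT7 shares 3054 bases with MAFG, whose log2 fold change was -0.30, and SIRT3 shares 386 with PSMD13, at -0.70. The 4 sirtuins without a call, SIRT1 and SIRT4 to SIRT6, had log2 fold changes between -0.24 and 0.08.

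Partners of these enzymes were taken as separate lists, to be read against the 33.0% of all genes tested that rose and the 32.6% that fell. Among 17 subunits and partners of PRC2 and its companion PRC1, which ubiquitinates histone H2A, 5 rose (29.4%) and 6 fell (35.3%), and 2 of the falls passed both cutoffs (11.8%, against 17.7% of all genes). PHF19, an accessory subunit that brings PRC2 to chromatin, had counts of 2076 and 2284 at 6 h and 371 and 418 at 24 h, a wider gap than that of EZH2 (log2 fold change -2.47 ± 0.08, adjusted P = 2.58e-19). MTF2, a relative of PHF19 with the same role, had counts of 1218 and 1115 at 6 h and 1191 and 1169 at 24 h and was not called. CBX7, a PRC1 subunit that reads H3K27 methylation, had a log2 fold change of -0.57. The histone chaperones RBBP4 and RBBP7, close paralogs that both serve PRC2, moved apart. RBBP7 fell by 0.46 ± 0.07 on the log2 scale (adjusted P = 2.71e-06), and RBBP4 rose by 0.33 ± 0.07 (adjusted P = 0.000198).

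COMPASS partners, here core and accessory subunits of H3K4 methyltransferase complexes together with HCFC1 and KANSL1, rose in 3 of 8 cases (37.5%, against 33.0% of all genes tested) and fell in 2 (25%, against 32.6%). WDR5 had a log2 fold change of 0.52 and DPY30 one of -0.70, both past the cutoffs (12.5% each way, against 17.4% and 17.7% of all genes). Among 13 deacetylase corepressor partners 4 rose (30.8%) and 1 fell (7.69%). Of 20 other writers and erasers, 9 rose (45%) and 5 fell (25%). SMYD5 had counts of 287 and 306 at 6 h and 809 and 772 at 24 h, the largest change of that list (log2 fold change 1.41 ± 0.09, adjusted P = 4.52e-13). PRMT6 and CARM1, which methylate arginines of histone H3, had log2 fold changes of 0.69 and 0.52. HAT1, which acetylates newly made histone H4 before its deposition, had counts of 2774 and 2870 at 6 h and 1440 and 1359 at 24 h (log2 fold change -1.01 ± 0.07, adjusted P = 1.58e-12). WHSC1, a writer of H3K36 dimethylation now named NSD2, had counts of 2892 and 2966 at 6 h and 1504 and 1500 at 24 h (log2 fold change -0.96 ± 0.07, adjusted P = 3.12e-12), apart from its relative NSD1 described above. Of 15 readers, 6 rose and 6 fell (40% each way). CBX3 (-0.55) and TDG (-0.51) were lower past both cutoffs (13.3%, against 17.7% of all genes) and BRD9 (0.55) was higher (6.67%, against 17.4%).

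The list of methyl and acetyl donor metabolism held 11 genes, which include AHCY, an enzyme that clears the product of methylation, and its relative AHCYL1. Of these, 8 rose (72.7%, against 33.0% of all genes tested) and 2 fell (18.2%, against 32.6%). Their median log2 fold change was 0.41, beside 0.0029 for all genes tested. SHMT1, which feeds one-carbon units into the folate cycle, had counts of 1376 and 1359 at 6 h and 2942 and 2862 at 24 h (log2 fold change 1.09 ± 0.07, adjusted P = 2.96e-13). SHMT2, its mitochondrial paralog, fell by 0.16 ± 0.07 on the log2 scale (adjusted P = 0.0428). MTHFD1, of the same cycle, had a log2 fold change of 0.64, and ACSS2, which makes acetyl-CoA from acetate, one of 0.63. Transcripts for the parts of the synthase of S-adenosylmethionine moved in opposite directions. MAT2A, the catalytic subunit, had counts of 5625 and 5637 at 6 h and 7871 and 7788 at 24 h, a rise of 0.48 ± 0.07 on the log2 scale (adjusted P = 1.88e-06). MAT2B, the regulatory subunit, had counts of 8187 and 8674 at 6 h and 4587 and 4574 at 24 h (log2 fold change -0.88 ± 0.07, adjusted P = 3.97e-11).

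The falls above took place in libraries where the listed genes of S phase were lower. All 20 of them fell and passed both cutoffs, against 32.6% and 17.7% of all genes tested, with a median log2 fold change of -1.84. Their summed counts were 31220 and 30541 at 6 h and 9868 and 9459 at 24 h. The most abundant at 6 h was PCNA, the sliding clamp of DNA polymerases, with counts of 5500 and 5977 at 6 h and 1369 and 1366 at 24 h. The part of this fall in the changes of the enzymes was not tested.

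**Figure D4:**
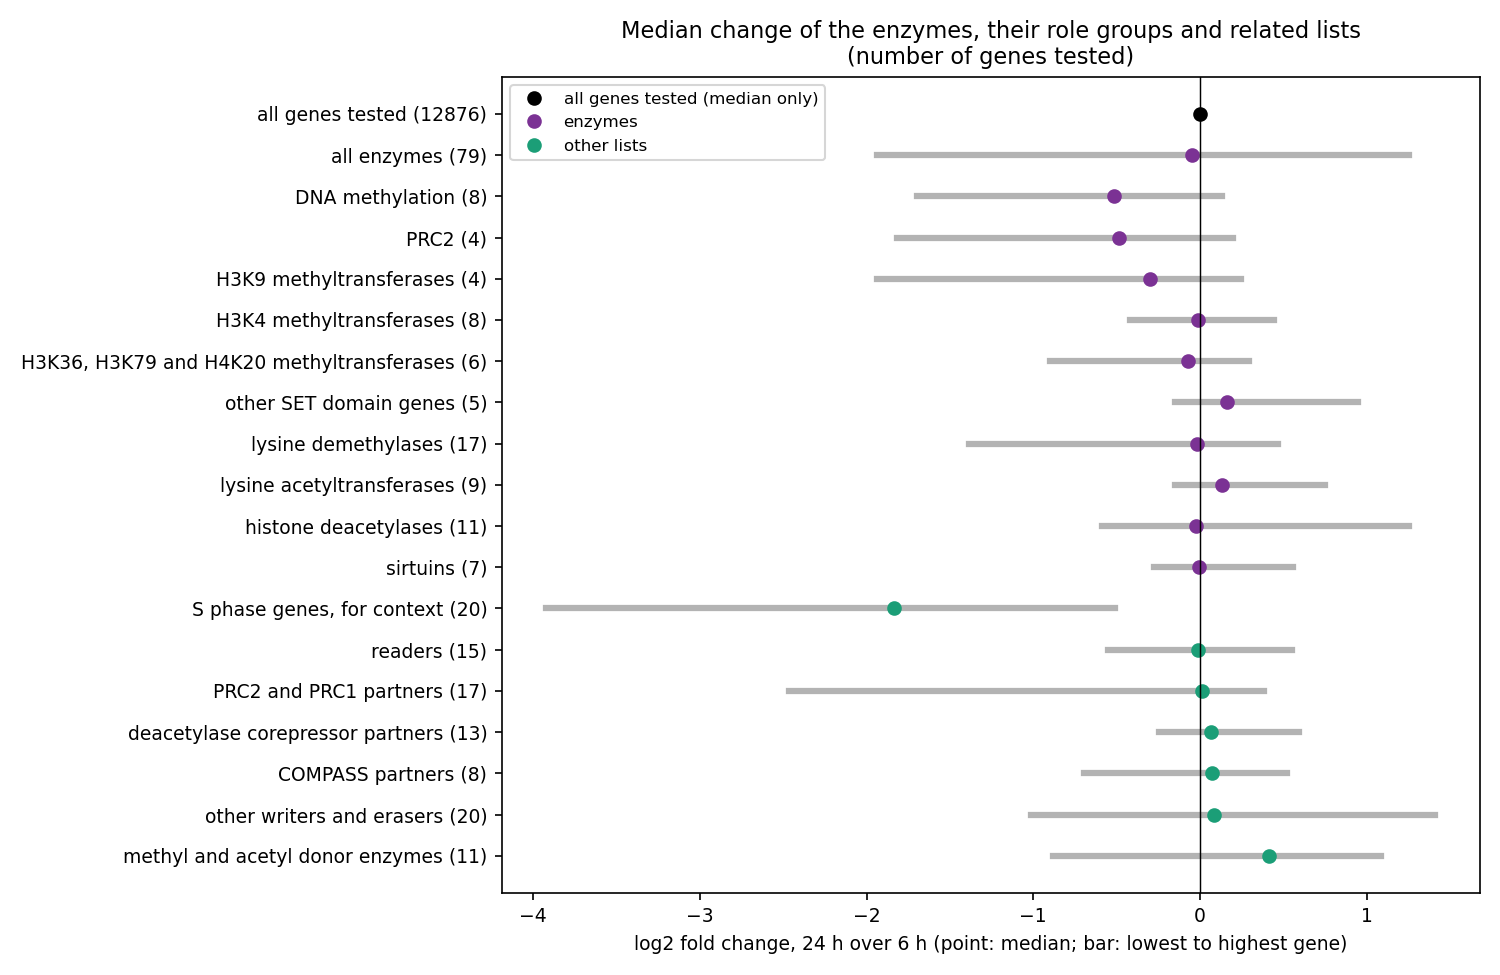
Median log2 fold change at 24 h relative to 6 h (points) of all genes tested, all 79 enzymes, their 10 role groups and 7 related lists, with grey bars from the lowest to the highest gene of each and the number of genes tested in brackets. The S phase genes have a median of -1.84 and the donor metabolism genes one of 0.41, and the enzymes as a whole lie near 0.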

How the data were processed

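RNA of TPC1 cells was measured in 4 libraries, 2 at 24 h and 2 at 6 h, grouped by their titles. The table deposited by the authors holds raw read counts per gene, with no normalization. A second set of columns deposited by the authors holds a normalized signal, the count over 1 size factor per library, and was left aside. The submitters' processing notes name STAR 2.3, hg19 and DESeq2, and the methods name a later STAR version. The methods name a stranded library kit, but the counter, its strand setting and the annotation version are not given in the sources used here, so overlapping genes are uncertain. The table also holds the authors' own comparison of 24 h with 6 h (a mean, log2 fold changes with errors, test statistics and P values), which was not used. Per-sample columns not assigned to a library numbered 0, although those of the normalized signal were not analysed.

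The counts entered edgeR 4.0.16, run under R 4.3.3 (filterByExpr, TMM, quasi-likelihood test with time as the single factor), which kept 12876 genes, and P values were adjusted over all of them by the Benjamini-Hochberg method. Each SE is the absolute log2 fold change over the square root of F. To normalize, counts were scaled by the TMM effective library size, set against the mean of the 4 libraries. Levels per kb use the longest protein-coding transcript of GENCODE v44, found through Ensembl identifiers for all 81 members. Of 19457 genes on the same chromosome there, 3.94% start within 1000 bp of their position in the table, so hg19 and reference positions were not mixed. Replicates differed by more than sampling noise (chi-square per degree of freedom 7.87 at 24 h and 10.3 at 6 h). The common biological coefficient of variation was 0.0521. Fits were tested on simulated data. Alternatives were DESeq2 1.42.0, scaling by library size alone or by the upper quartile, dropping the expression filter or asking for 10 counts or more in each library, a replicate block, leaving out each library in turn, an adjusted P under 0.01, and an adjusted P with the fold cutoff. Figures used matplotlib 3.10.9 (Python 3.11.15).

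Members and gene lists were chosen with earlier results of these data known. Named were members past both cutoffs, the largest change and the most abundant member of each role group, and list genes past the cutoffs or with the largest change, apart from some that are not reported here. Members named with a smaller call, the paralogs EP300, KAT2B and DNMT3A, HDAC2, HDAC10, and among partners MTF2, RBBP4, RBBP7, SETDB1, SETDB2, SHMT2 and MAT2A were chosen after their values were seen.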

Additional observations from a re-analysis of the deposited data

How the results depend on the processing

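With 2 libraries per time, changes of small size or in genes with few counts are resolved poorly. The 16 members past both cutoffs kept their direction in each of the 10 alternative fits that tested them. Counts past both cutoffs were 5 higher and 11 lower with DESeq2, with library size alone, with upper quartile scaling and with no filter, and 5 and 10 with at least 10 counts in every library, where DNMT3L was not tested. Leaving out each library in turn gave 5 to 7 higher and 10 to 13 lower. Members called higher numbered 12 with DESeq2, against 19, and members called lower 22, against 26, and the cause was not tested. At an adjusted P under 0.01 in the main fit they numbered 12 and 23, through the stricter threshold alone. The median log2 fold change of the members was -0.0926 with library size alone and -0.0201 with upper quartile scaling, where the median of all genes moved to -0.04 and 0.03. Without each library in turn it lay between -0.0544 and -0.0213. Sign changes were seen in genes without a call, HDAC2 with library size alone (-0.018), HDAC1 with upper quartile scaling (0.0086), and, among fits without 1 library, HDAC2 (lowest -0.0469, highest 0.0934), EP300 (-0.32 to 0.0138) and KAT2B (-0.0757 to 0.0284). Of 529 alternative values for the 53 members followed singly, 471 kept direction and side of the threshold, 49 lost a call, 3 gained one and 6 changed sign.

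Replicate numbers are shared by the times. Across all genes tested, same-numbered libraries hardly deviated together (correlation 0.0846), so the numbers were not taken as pairs. Single members could still do so, as KMT2A, KMT2D, CREBBP and EP300 were higher in replicate 2 at both times. With a replicate block, 19 members were higher and 28 lower, 5 and 11 past both cutoffs, with a median of -0.05. Over all genes the replicate block gave 4524 higher and 4448 lower.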
